A study of Mus musculus with 12 samples.

Results

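In some genes the loss of Tbpl2 did not have the same effect in oocytes of primary and of secondary follicles, and these genes are described here. The study reports that its fold changes at both stages were correlated among well expressed transcripts. It concludes that the loss changed RNA levels in a similar way at both. For each gene the interaction is the log2 fold change between Tbpl2-/- and WT oocytes at postnatal day 14 (P14) minus the same log2 fold change at postnatal day 7 (P7). It equals the change with age in Tbpl2-/- oocytes minus the change with age in WT oocytes. All 12 libraries of the series entered 1 fit of 4 group means, and of 17715 genes with enough reads to be tested, 2404 were called in the interaction, which required both an adjusted p no higher than 0.05 and more than a 2-fold difference. The 959 genes called more negative at P14 made 5.41% of the tested genes, and the 1445 called more positive made 8.16%.

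The 4 groups were P7 WT and P7 Tbpl2-/- oocytes from primary follicles, and P14 WT and P14 Tbpl2-/- oocytes from secondary follicles, each as 3 libraries. The labels call the mutant genotype Tbp2 null or KO, with no other allele named, and Tbpl2-/- is the name the study uses. Each library was made from the RNA of a pool of hand-picked mouse oocytes, with 350 to 400 oocytes in P7 WT, 251 to 340 in P7 Tbpl2-/-, 144 to 260 in P14 WT and 130 to 214 in P14 Tbpl2-/-. The strain and the animals behind each pool are not given in the sources used here. The libraries are named as biological replicates, and p-values measure the spread between these pools.

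TBPL2 is the oocyte paralogue of the TATA-binding protein TBP, which places RNA polymerase II at promoters. In growing mouse oocytes TBPL2 takes the place of TBP, and the RNA made during growth is stored for meiotic maturation and the first divisions of the embryo. Between the primary and the secondary follicle the oocyte enlarges, surrounds itself with the zona pellucida and gains layers of granulosa cells. An RNA level at P14 therefore reflects the stock already present at P7 together with what was made and cleared since then. This assay measures only the level.

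The libraries held between 31467610 and 48030724 counts in genes. Values of single genes are normalised counts, that is raw counts divided by the relative effective library size after TMM scaling, which sets the bulk of genes alike in all libraries. Tbpl2 RNA had 3129, 3360.3 and 3058 in P7 WT and 119.6, 76.9 and 103 in P7 Tbpl2-/-, and 2138, 2457 and 1942 in P14 WT and 85.0, 84.7 and 77.6 in P14 Tbpl2-/-. It was low in all 6 mutant libraries, and its genotype effect did not pass the interaction test (0.27, SE 0.216, adjusted p = 0.373, edgeR quasi-likelihood F test).

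**Figure D1:**
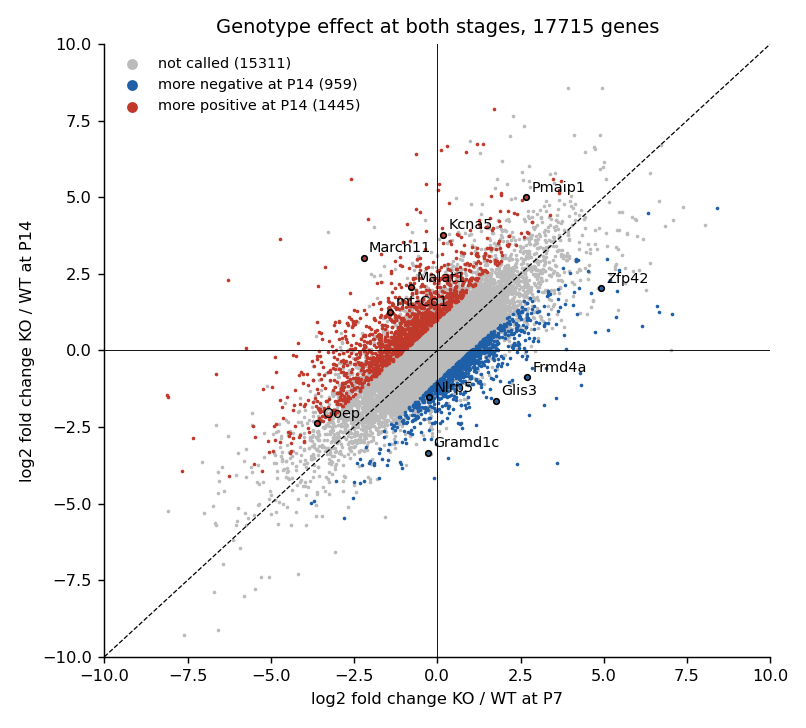
Log2 fold change between Tbpl2-/- (KO) and WT oocytes at P7 (horizontal) and P14 (vertical) for the 17715 tested genes. Points are genes, blue for the 959 more negative at P14 and red for the 1445 more positive, and the dashed line marks an equal effect at both stages; Glis3 and March11 lie on opposite sides of 0 at the 2 stages.

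The called genes fell into distinct patterns. Among the 959 more negative genes, 308 were higher in Tbpl2-/- at P7 only, 257 were lower at P14 only, and 271 were called at neither stage. A further 66 were higher at both stages, 44 were lower at both and 13 were higher at P7 and lower at P14. Among the 1445 more positive genes, 509 were lower in Tbpl2-/- at P7 only, 413 were higher at P14 only and 256 were called at neither stage. Another 142 were lower at both stages, 89 were higher at both and 36 were lower at P7 and higher at P14. Over all tested genes 17.1% were called lower and 15.5% higher in Tbpl2-/- at P7, and 14.6% lower and 16.7% higher at P14. These classes use the same libraries as the interaction and describe it. Without P7 WT replicate 1 the class higher at P7 only held 500 genes, without P7 Tbpl2-/- replicate 2 the more negative class called at neither stage held 171, and without P7 Tbpl2-/- replicate 3 the class higher at P7 and lower at P14 held 8.

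Read as changes with age, the pattern with the most genes in either direction was a change in WT that was not called in Tbpl2-/-. Its lead was narrow among the more negative genes. The age counts were not repeated under other scalings or without single libraries. Of the 959 more negative genes, 371 rose with age in WT and were not called with age in Tbpl2-/-, 184 fell with age in Tbpl2-/- alone, 14 rose in WT and fell in Tbpl2-/-, and 358 were called with age in neither genotype. Of the 1445 more positive genes, 659 fell with age in WT and were not called in Tbpl2-/-, 389 rose with age in Tbpl2-/- alone, 46 fell in WT and rose in Tbpl2-/-, and 296 were called in neither. Between P7 and P14, 11.4% of the tested genes were called lower and 9.34% higher in WT, against 5.05% and 8.78% in Tbpl2-/-. These changes are relative to the bulk of genes and are not amounts per oocyte. Mean RNA per oocyte was 16.9 pg in P7 WT, 17.7 in P7 Tbpl2-/-, 23.9 in P14 WT and 40.4 in P14 Tbpl2-/-. The P14 Tbpl2-/- pools ranged from 20.6 to 52.8 pg. For RNAs called higher in Tbpl2-/- the study proposes a slight overstatement from scaling to library size, transcript buffering through mRNA stabilisation, or both. It favours buffering, from its validation of some of these transcripts. The part of either here was not tested.

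**Figure D2:**
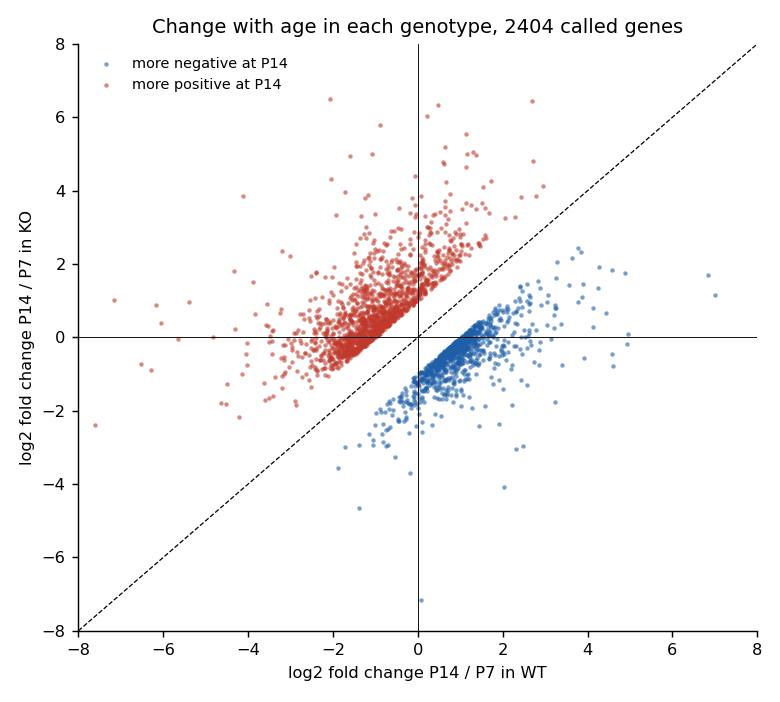
Log2 fold change from P7 to P14 in WT (horizontal) and in Tbpl2-/- (KO, vertical) for the 2404 called genes, blue for more negative and red for more positive at P14. The interaction is the vertical distance from the dashed line, and 659 red genes fell with age in WT without a call in Tbpl2-/-.

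The balance of the 2 directions depends on the scaling of the libraries. The median interaction of all tested genes was 0.04 with TMM, and scaling by library size alone moved it to 0.18 and gave 657 more negative and 1857 more positive genes. Upper-quartile scaling moved it to 0.16 and gave 702 and 1815. The genes singled out below by size or abundance had a mean above 100 normalised counts and were called with the same sign in every fit that left out 1 library and under library-size and DESeq2 size-factor scaling, conditions that 411 more negative and 487 more positive genes met.

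Among the largest more negative interactions were genes that rose with age in WT oocytes and fell or rose less in Tbpl2-/- oocytes. Coordinates of named genes are on GRCm38 (mm10), from the GENCODE annotation, written as chromosome, start and end. Frmd4a (2:4017717–4614043), which encodes a scaffold protein with a FERM domain, had normalised counts of 70.2, 36.2 and 96.01 in P7 WT and 423, 424 and 474 in P7 Tbpl2-/-, and 365, 393 and 331 in P14 WT and 192, 170.0 and 231 in P14 Tbpl2-/-. The mutant libraries lay above all WT libraries at P7 and below all of them at P14 (interaction −3.58, SE 0.348, adjusted p = 5.05e-05 by edgeR). Gramd1c (16:43980350–44063345), for a protein of the GRAM-domain family that carries cholesterol between membranes, had 104, 120.0 and 74.3 in P7 WT and 66.0, 82.4 and 96.5 in P7 Tbpl2-/-, and 464, 482 and 417 in P14 WT and 29.3, 48.1 and 56.2 in P14 Tbpl2-/-. Its groups overlapped at P7, and at P14 WT was high and Tbpl2-/- low without overlap (−3.05, SE 0.347, adjusted p = 9.44e-05). Plxdc2 (2:16356304–16755839), a transmembrane receptor gene, had 78.3, 43.5 and 45.4 in P7 WT and 119.6, 49.8 and 85.6 in P7 Tbpl2-/-, and 611, 432 and 508 in P14 WT and 102, 98.3 and 103 in P14 Tbpl2-/-, again with groups that overlapped at P7 and stood apart at P14 (−2.97, SE 0.402, adjusted p = 3.04e-04).

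Steap4, for a metalloreductase, was lower in Tbpl2-/- at both stages and by more at P14. Its normalised counts were 177, 68.3 and 139 in P7 WT and 85.6, 62.8 and 36.8 in P7 Tbpl2-/-, and 2192, 1931 and 1543 in P14 WT and 92.8, 151 and 153 in P14 Tbpl2-/- (interaction −2.78, SE 0.48, adjusted p = 0.00184). The P7 groups overlapped and those at P14 did not. Cd36, for a fatty acid translocase of the cell surface, had 2061, 1816 and 1611 in P7 WT and 1631, 1904 and 1687 in P7 Tbpl2-/-, and 3634, 4713 and 3326 in P14 WT and 826, 709 and 773 in P14 Tbpl2-/-. The P7 groups overlapped, while at P14 the lowest WT library was well above the highest mutant library (−2.27, SE 0.203, adjusted p = 3.64e-05). Mmp24, a membrane-type matrix metalloproteinase gene, and Ppef1, a phosphatase gene, were also lower in Tbpl2-/- at P14, with interactions of −2.45 and −2.49. For Mmp24, 13.6% of the exonic bases overlap an antisense gene.

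Other large more negative interactions belonged to genes that were higher in Tbpl2-/- at P7 and were not called higher at P14. Cnga2, for a subunit of a cyclic nucleotide-gated channel, had 22.4, 10.3 and 45.4 in P7 WT and 257, 178 and 155 in P7 Tbpl2-/-, and 164, 136 and 148 in P14 WT and 194, 184 and 219 in P14 Tbpl2-/-, with WT low at P7 (−2.50, SE 0.461, adjusted p = 0.00193). Mrc1, for the mannose receptor, and Havcr1, for a phosphatidylserine receptor of the TIM family, had interactions of −2.60 and −2.40, with log2 fold changes of 1.78 and 1.90 at P7 and −0.82 and −0.50 at P14. Ltbp3, for a protein that binds latent TGF-β, went from a log2 fold change of 1.28 at P7 to −0.99 at P14 (interaction −2.27).

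In a smaller set of genes the genotype effect turned round. The stability conditions covered the interaction call and not the calls at each stage. The class higher at P7 and lower at P14 held 13 genes, but 4 with library-size scaling and 2 in the fit of genes with a mean above 100. Glis3 (19:28258851–28680077), for a zinc finger transcription factor of the GLI-similar family, had 145, 75.5 and 115 in P7 WT and 269, 454 and 421 in P7 Tbpl2-/-, and 507, 417 and 421 in P14 WT and 69.4, 171 and 186 in P14 Tbpl2-/-. WT rose with age and Tbpl2-/- fell, without overlap of the genotypes at either stage (−3.41, SE 0.459, adjusted p = 3.99e-04). Entpd1 (19:40612366–40741602), for the ectonucleotidase CD39, had 89.5, 69.3 and 35.1 in P7 WT and 259.9, 215 and 241 in P7 Tbpl2-/-, and 398, 361 and 299 in P14 WT and 179, 154 and 191 in P14 Tbpl2-/-, and its genotypes also changed places (−2.90, SE 0.352, adjusted p = 1.52e-04). Sec16b (1:157506728–157568425), for a protein of endoplasmic reticulum exit sites, and Sh3rf2, for a ring finger protein with SH3 domains, did the same, with interactions of −2.71 and −2.33.

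The opposite turn was largest in March11 (15:26309048–26409576), which encodes a membrane-bound ubiquitin ligase of the MARCH family. It had 123.1, 186 and 276 in P7 WT and 45.4, 26.01 and 54.2 in P7 Tbpl2-/-, and 16.3, 3.46 and 50.9 in P14 WT and 177, 218 and 191 in P14 Tbpl2-/-. The mutant was below WT at P7 and above it at P14 (5.24, SE 0.772, adjusted p = 9.75e-04). Zfp503 (14:21983959–21989601), for a zinc finger corepressor, had 151, 319.7 and 292 in P7 WT and 86.6, 92.1 and 92.1 in P7 Tbpl2-/-, and 37.0, 9.24 and 80.6 in P14 WT and 103, 138 and 146 in P14 Tbpl2-/-, with no overlap at either stage (3.09, SE 0.665, adjusted p = 0.00589). Onecut3 (10:80494835–80517276), a homeobox transcription factor gene, and Samd5 (10:9622936–9675208), for a protein with a sterile alpha motif, had interactions of 2.86 and 2.69. For Samd5 the values were 662, 775 and 740.2 in P7 WT and 228, 271 and 279 in P7 Tbpl2-/-, and 261, 244 and 316 in P14 WT and 447, 672 and 776 in P14 Tbpl2-/-, so that each genotype at P14 came near the level of the other at P7.

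**Figure D3:**
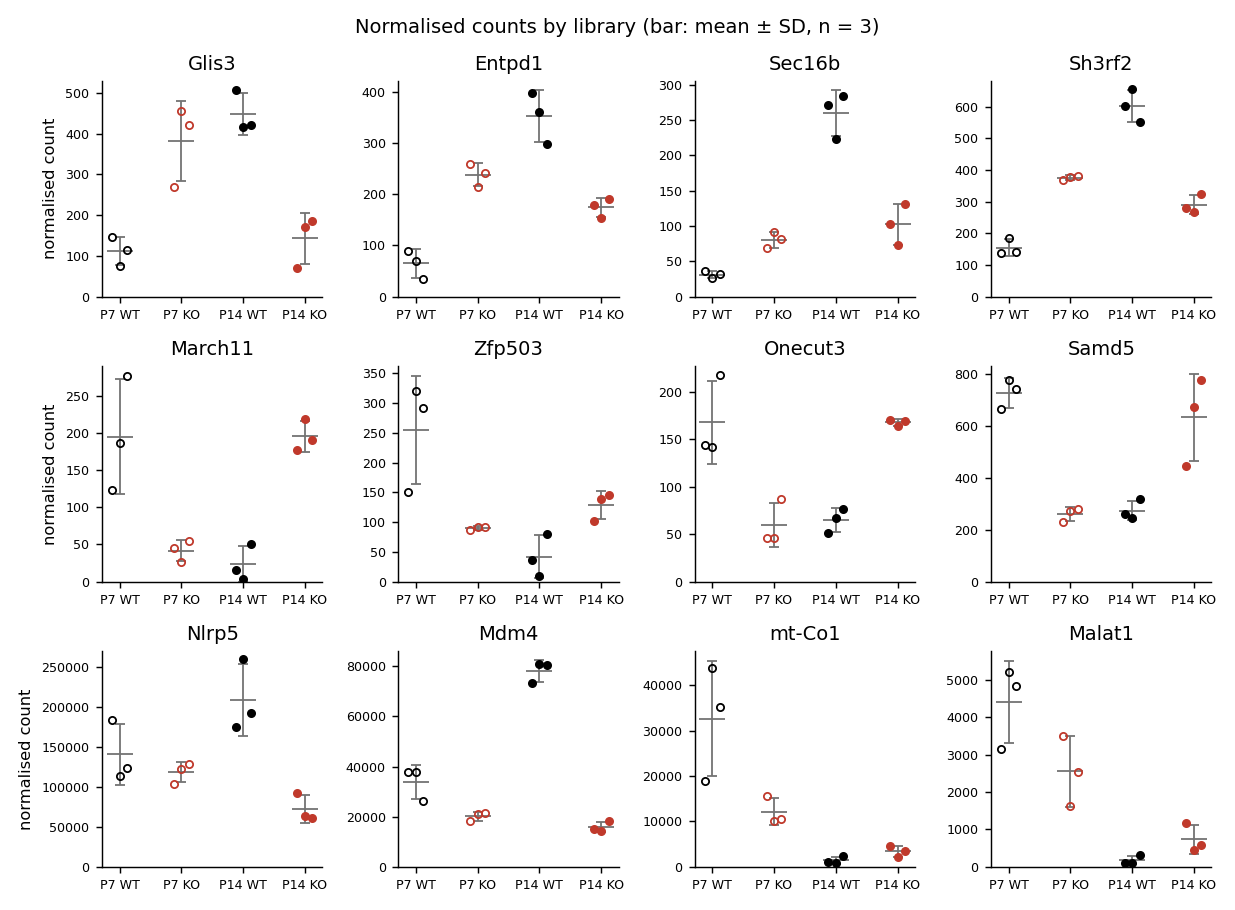
Normalised counts of 12 genes in each library (points, WT black, Tbpl2-/- red and labelled KO, open at P7 and filled at P14) on a linear axis from 0, with the mean and SD of 3 libraries. In Glis3, Entpd1, Sec16b and Sh3rf2 the mutant is above WT at P7 and below it at P14, and in March11, Zfp503, Onecut3 and Samd5 the order is the reverse.

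Many of the largest more positive interactions were losses at P7 that had disappeared or shrunk at P14. Tmem171 (13:98686235–98694834), a transmembrane protein gene, had normalised counts of 334, 292 and 287 in P7 WT and 35.1, 24.9 and 34.7 in P7 Tbpl2-/-, and 548, 453 and 448 in P14 WT and 499, 629 and 657 in P14 Tbpl2-/-. The mutant was far below WT at P7, and the genotypes overlapped at P14 (3.56, SE 0.254, adjusted p = 3.01e-06). Kctd15, for an adaptor with a BTB domain, Arhgap31, for a GTPase-activating protein of CDC42 and RAC1, and Smarca1, for an ISWI chromatin remodelling ATPase, followed this course, with P7 log2 fold changes of −2.77, −3.04 and −2.74 and P14 values of 0.46, 0.01 and 0.38. Emx2, a homeobox gene of the urogenital tract and forebrain, Rp1, for a microtubule-associated protein of photoreceptors, and Cpb1, for a carboxypeptidase, stayed lower in Tbpl2-/- at P14 but by less. Rp1 had 474, 428 and 212 in P7 WT and 28.9, 20.6 and 18.4 in P7 Tbpl2-/-, and 325, 336 and 378 in P14 WT and 147, 174 and 180.2 in P14 Tbpl2-/-, with the mutant below WT at both stages (2.97, SE 0.384, adjusted p = 2.36e-04). Hnrnpa0, for an RNA-binding protein, had an interaction of 2.69.

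Others were gains that appeared or grew by P14. Kcna5 (6:126532551–126535412), for a voltage-gated potassium channel, had 12.2, 6.21 and 30.97 in P7 WT and 21.7, 15.2 and 18.4 in P7 Tbpl2-/-, and 38.1, 41.6 and 47.7 in P14 WT and 516, 494 and 732 in P14 Tbpl2-/-. The genotypes overlapped at P7, and at P14 every mutant library was far above every WT library (3.60, SE 0.54, adjusted p = 5.73e-04). Epn3, for an epsin of clathrin-coated pits, was higher in Tbpl2-/- at both stages, with log2 fold changes of 1.92 at P7 and 5.08 at P14 (interaction 3.16). The nuclear long noncoding RNA Malat1 had 3152, 5206 and 4829 in P7 WT and 3507, 1624 and 2529 in P7 Tbpl2-/-, and 114, 105 and 305 in P14 WT and 1173, 458 and 579 in P14 Tbpl2-/-. The genotypes overlapped at P7 and not at P14. It fell with age in both, by a log2 fold change of −4.65 in WT and −1.80 in Tbpl2-/- (interaction 2.85, SE 0.692, adjusted p = 0.0142).

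Abundant oocyte RNAs were found in both directions. Nlrp5, a maternal-effect gene of the subcortical maternal complex, had 183540.5, 113794 and 123974 in P7 WT and 103758, 122574 and 127954 in P7 Tbpl2-/-, and 175045, 259126 and 191679 in P14 WT and 91841, 63199 and 61147 in P14 Tbpl2-/-, with overlap at P7 and none at P14 (−1.28, SE 0.289, adjusted p = 0.00627). Mdm4, for an inhibitor of p53, was lower in Tbpl2-/- at both stages and by more at P14, with 37708, 37826 and 26187 in P7 WT and 18136, 20949 and 21327 in P7 Tbpl2-/-, and 73264, 80874 and 80635 in P14 WT and 15030.0, 14493 and 18334 in P14 Tbpl2-/- (−1.54, SE 0.2, adjusted p = 2.37e-04). Nup214, a nuclear pore gene, Tdrd1, for a Tudor protein of the piRNA pathway, and Anapc5, for a subunit of the anaphase-promoting complex, had interactions of −1.22, −1.15 and −1.42. In Tdrd1 the mutant was higher at P7 alone, whereas in Nup214 it was lower at P14 alone.

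On the positive side, Ooep, another gene of the subcortical maternal complex, had 58715, 93802 and 90221 in P7 WT and 6655, 6013 and 7245 in P7 Tbpl2-/-, and 33944, 28426 and 38305 in P14 WT and 6000.1, 7176 and 6194 in P14 Tbpl2-/-. The mutant libraries of both ages overlapped while WT fell with age, so the deficit was smaller at P14 (1.23, SE 0.229, adjusted p = 0.00196). Elobl, an elongin B-like gene, and Dynll1, for a dynein light chain, had interactions of 1.32 and 1.38, and 12.1% of the 50-base stretches of Elobl transcripts occur in another gene. Dppa3, which protects maternal methylation marks, had 60374, 79041 and 92161 in P7 WT and 32973, 22428 and 25684 in P7 Tbpl2-/-, and 30910.0, 35408 and 27802 in P14 WT and 33750.4, 27029.9 and 22709 in P14 Tbpl2-/-, a deficit at P7 and overlapping groups at P14 (1.34, SE 0.256, adjusted p = 0.00244), with 16.5% of its stretches also in a pseudogene. Among other oocyte genes, the deficits of Fgf8, a growth factor gene, and Zar1, for an RNA-binding protein of stored mRNAs, were also smaller at P14 (interactions 1.16 and 1.03, adjusted p = 8.51e-04 and 0.00284). Eloc, for elongin C, passed at 0.57 with an adjusted p of 0.0494, a call lost in 9 of the 12 fits without 1 library. The oocyte growth factor genes Bmp15 (0.24, SE 0.159, adjusted p = 0.278) and Gdf9 (0.17, SE 0.143, adjusted p = 0.394) did not pass. For Zar1, 28.4% of the stretches are shared with a predicted gene.

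Gene lists of known functions were read by the number of tested members past an adjusted p of at most 0.05 at any size. Over all tested genes this background was 14.3% more negative and 13.6% more positive, with a median interaction of 0.04. The list with the most members on the positive side was that of cytosolic ribosomal proteins, the protein part of the ribosome, where 52 of 88 tested members were more positive and the others did not pass. Their median interaction was 1.03. The median change with age was −1.36 in WT and −0.35 in Tbpl2-/-, and the median genotype effect went from −0.14 at P7 to 0.74 at P14. Their summed normalised counts were 53492 to 77829.9 in P7 WT and 57977 to 64927 in P7 Tbpl2-/-, and 32515 to 33914 in P14 WT and 42056 to 49833 in P14 Tbpl2-/-. P14 WT was thus the lowest group, below all the others without overlap.

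Rpl38, of the large ribosomal subunit, had 106, 221 and 214 in P7 WT and 112, 36.8 and 106 in P7 Tbpl2-/-, and 33.7, 28.9 and 44.5 in P14 WT and 80.1, 83.2 and 53.5 in P14 Tbpl2-/-, with overlap at P7 and none at P14 (2.09, SE 0.541, adjusted p = 0.0113). Rpl35 and Rps21, of the large and the small subunit, had interactions of 1.75 and 1.65. Ribosomal protein genes have many processed pseudogenes: 27.4% of the 50-base stretches of Rpl38 and 10.5% of those of Rps21 occur in other genes, and 66.2% of the exonic bases of Rpl35 overlap an antisense gene, so their counts are uncertain. Ribosomal protein mRNAs are known for a run of pyrimidines at their start, the TOP motif, through which growth signals set their translation. In RefSeq promoters on GRCm38.p6, a run of at least 5 C or T that covers the annotated start (position +1, gene strand only) was found in 19 of the 64 ribosomal protein genes with a promoter, or 29.7%, against 9.19% of 12346 tested genes. The starts of the named members are shown from 12 bases before to 12 bases after the start site, with the pyrimidine run in capitals, because such a run is more frequent in this list than in all tested genes, although most of its members lack it. The start sites used in oocytes were not measured here.
Rpl38 (chr11:114668568-114668591, plus strand): ggaagcctcgTTCTTTCCCCgttc
Rpl35 (chr2:39005120-39005143, minus strand): ccccgCCCTTTCCTCTTTCTCTCg
Rps21 (chr2:180257367-180257390, plus strand): cgaggacccgCCCTCCTgcccaat

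Genes of the mitochondrial respiratory chain moved in the same direction. Of 82 nuclear genes for its complexes, 46 were more positive and 5 more negative, with a median of 0.85, and without P7 WT replicate 3 the count of more positive genes was 30. Cox4i2, for a subunit of cytochrome c oxidase, had 320.4, 501 and 569 in P7 WT and 953, 798 and 776 in P7 Tbpl2-/-, and 87.0, 77.4 and 103 in P14 WT and 479.7, 494 and 385 in P14 Tbpl2-/-, higher in the mutant at both stages and by more at P14 (1.48, SE 0.285, adjusted p = 0.00239). Ndufa13, of complex I, and Uqcrb, of complex III, had interactions of 1.54 and 1.46, and 30.0% of the exonic bases of Ndufa13 overlap another gene on the opposite strand. Of 77 mitochondrial ribosomal protein genes 31 were more positive and the others did not pass (median 0.44), and the count was 19 or 20 without P7 Tbpl2-/- replicate 2 or 3 or P7 WT replicate 2 or 3. Mrpl52, Mrps21 and Mrpl54 had interactions of 1.87, 1.55 and 1.28.

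Among mRNAs of the mitochondrial genome, 4 of 7 tested were more positive. Cytochrome b (mt-Cytb) had 56663, 131135 and 108981 in P7 WT and 35817, 28471 and 30324 in P7 Tbpl2-/-, and 7969.5, 5411 and 12630.4 in P14 WT and 10185, 9057 and 11088 in P14 Tbpl2-/-. P7 WT was the highest group, with replicate 1 lower than the other two, and the P14 genotypes overlapped (1.87, SE 0.458, adjusted p = 0.0131). Cytochrome c oxidase subunit 1 (mt-Co1) had 18850.4, 43798 and 35229 in P7 WT and 15662, 10198 and 10619 in P7 Tbpl2-/-, and 1086, 901 and 2309 in P14 WT and 4661, 2182 and 3486 in P14 Tbpl2-/-, where P14 WT was the lowest group by its mean and overlapped P14 Tbpl2-/- (2.69, SE 0.614, adjusted p = 0.011). Their replicate spread was wide, and the number of members past the test was 7 without P14 WT replicate 3, 4 without P7 WT replicate 1 and 2 without any other single library. DESeq2 called 7. Nuclear copies share 51.1% of the stretches of mt-Co1.

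Short transcripts moved with these groups. Among the 11587 genes with a mean above 100 normalised counts, the median interaction was 0.41 for the 261 genes with a median transcript length of up to 500 bases, 0.04 for those of 500 to 1000 bases, −0.21 for 2000 to 3000 and −0.25 for 3000 to 4000. The level of the shortest class was above the gene mean in all P7 WT libraries, by 0.10 in replicate 1 and 0.33 and 0.36 in replicates 2 and 3, and below it in all P14 WT libraries, by median log2 deviations of −0.13, −0.06 and −0.13. The Tbpl2-/- libraries lay on both sides, at 0.14, −0.09 and 0.04 at P7 and 0.06, −0.02 and −0.19 at P14. With a smooth trend on transcript length removed from each library, 992 genes were more negative and 1295 more positive, and the medians were 0.82 for cytosolic ribosomal proteins, 0.59 for respiratory chain genes and 0.30 for mitochondrial ribosomal proteins. In that fit 43, 36 and 26 of their members were more positive.

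**Figure D4:**
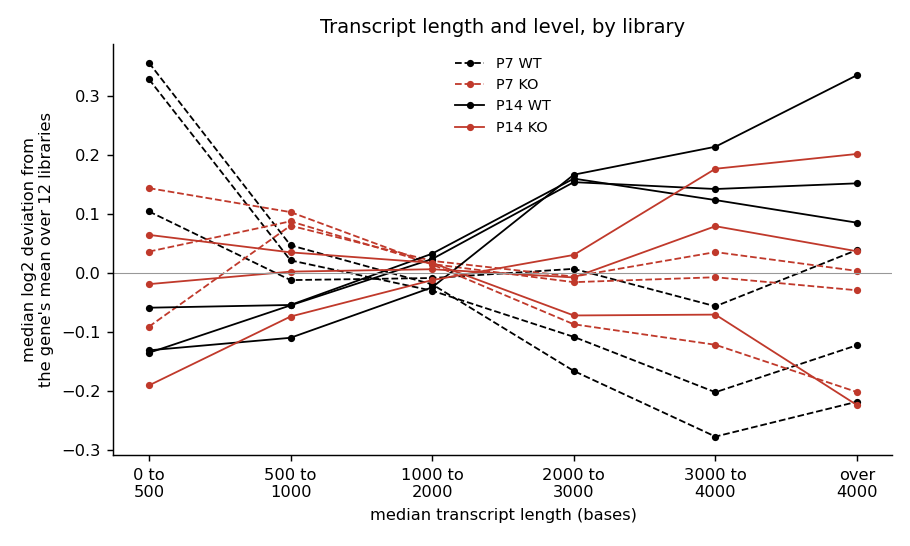
Median log2 deviation of genes from their mean over the 12 libraries (vertical) in 6 classes of median transcript length in bases (horizontal), 1 line per library, for the 11587 genes with a mean above 100 normalised counts. In the class up to 500 bases the P7 WT libraries (black, dashed) lie at 0.10 to 0.36 and the P14 WT libraries (black, solid) below 0. The Tbpl2-/- libraries (red) lie on both sides of 0 at P7 and at P14.

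Nuclear pore, aminoacyl-tRNA synthetase, DNA repair and piRNA lists had more members on the negative side. Of 28 nuclear pore genes, 12 were more negative and 1 was more positive, with a median of −0.55. Nup214 had 28916, 19201 and 17256 in P7 WT and 15391, 20178 and 20799 in P7 Tbpl2-/-, and 46971, 48006 and 50232 in P14 WT and 15668, 18282 and 19961 in P14 Tbpl2-/-. WT rose with age while the mutant libraries of both ages overlapped, and the genotypes overlapped at P7 and not at P14 (−1.22, SE 0.241, adjusted p = 0.00287). Nup160 and Nup205, of the scaffold of the pore, had interactions of −1.30 and −1.29, and Nup205 no longer passed without P7 WT replicate 3. Of 36 aminoacyl-tRNA synthetase genes, whose enzymes charge tRNAs, 16 were more negative and 1 more positive (median −0.42), among them Tarsl2 and Lars with interactions of −2.47 and −1.18. Without P14 Tbpl2-/- replicate 2 the count of more negative members was 10.

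DNA replication and repair genes gave 31 more negative and 6 more positive of 70, with a median of −0.43. Fancd2, of the Fanconi anaemia pathway of crosslink repair, had 2305, 1801 and 1343 in P7 WT and 2108, 2918 and 2717 in P7 Tbpl2-/-, and 3887, 4353 and 3859 in P14 WT and 1859, 1709.8 and 1979 in P14 Tbpl2-/-, with overlap at P7 and a mutant below WT at P14 (−1.63, SE 0.239, adjusted p = 5.10e-04). Pole, for the catalytic subunit of DNA polymerase epsilon, and Rad54l, for a recombination ATPase, had interactions of −1.56 and −1.49, and 15.4% of the exonic bases of Rad54l overlap an antisense gene. Rpa3, a single-strand binding protein gene, went the other way (1.28, SE 0.256, adjusted p = 0.00298). The count of more negative members was 17, 19 and 18 without P14 Tbpl2-/- replicate 2, P7 Tbpl2-/- replicate 2 and P7 Tbpl2-/- replicate 3.

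Among genes of meiotic prophase and recombination, 12 of 36 were more negative and 4 more positive. Stag3, for a cohesin of meiotic chromosome axes, had 435, 383 and 249.8 in P7 WT and 666, 697 and 643 in P7 Tbpl2-/-, and 516, 709 and 521 in P14 WT and 290.2, 244 and 259 in P14 Tbpl2-/-. It was high in the mutant at P7 and low at P14, without overlap at either stage (−2.05, SE 0.271, adjusted p = 2.81e-04). Hfm1, for a helicase of crossover formation, and Tex15, needed for meiotic recombination in male mice, had interactions of −2.50 and −1.58. In the piRNA, siRNA and microRNA list 11 of 29 were more negative and 1 more positive. Tdrd9, for a piRNA pathway helicase, had 6557, 4326 and 4518 in P7 WT and 5553, 7096 and 6739 in P7 Tbpl2-/-, and 8382, 8796 and 7958 in P14 WT and 2680.1, 2208 and 2257 in P14 Tbpl2-/-, lower in the mutant at P14 alone (−2.15, SE 0.215, adjusted p = 5.13e-05), and Ago4, an Argonaute gene, had an interaction of −1.58.

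Membrane transport and zinc finger genes were the largest lists. Of 270 solute carrier genes 65 were more negative and 18 more positive, with a median of −0.29. Slc27a2, for a fatty acid transport protein, had 28.5, 54.8 and 24.8 in P7 WT and 278, 340.2 and 195 in P7 Tbpl2-/-, and 20.7, 21.9 and 21.2 in P14 WT and 35.2, 33.7 and 35.7 in P14 Tbpl2-/-, high in P7 Tbpl2-/- alone (−2.20, SE 0.438, adjusted p = 0.00287). Slc4a3, an anion exchanger gene, was high in P14 Tbpl2-/- alone, with 7.12, 10.3 and 39.2 in P7 WT and 41.2, 18.4 and 28.2 in P7 Tbpl2-/-, and 8.70, 5.77 and 10.6 in P14 WT and 115, 126 and 107 in P14 Tbpl2-/- (3.13, SE 0.716, adjusted p = 0.00608). Of 368 genes named Zfp with a number, 78 were more negative and 37 more positive. With library-size scaling these counts were 60 and 48, and the median moved from −0.25 to −0.11. Zfp42, the pluripotency marker REX1, had 6.10, 5.17 and 2.06 in P7 WT and 126, 153 and 132 in P7 Tbpl2-/-, and 22.8, 27.7 and 36.0 in P14 WT and 127, 112 and 117 in P14 Tbpl2-/-, higher in Tbpl2-/- at both stages and by less at P14 (−2.87, SE 0.432, adjusted p = 5.77e-04). The count of more negative Zfp genes was 45 to 48 without P14 Tbpl2-/- replicate 2, P7 Tbpl2-/- replicate 2 or P7 Tbpl2-/- replicate 3.

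**Figure D5:**
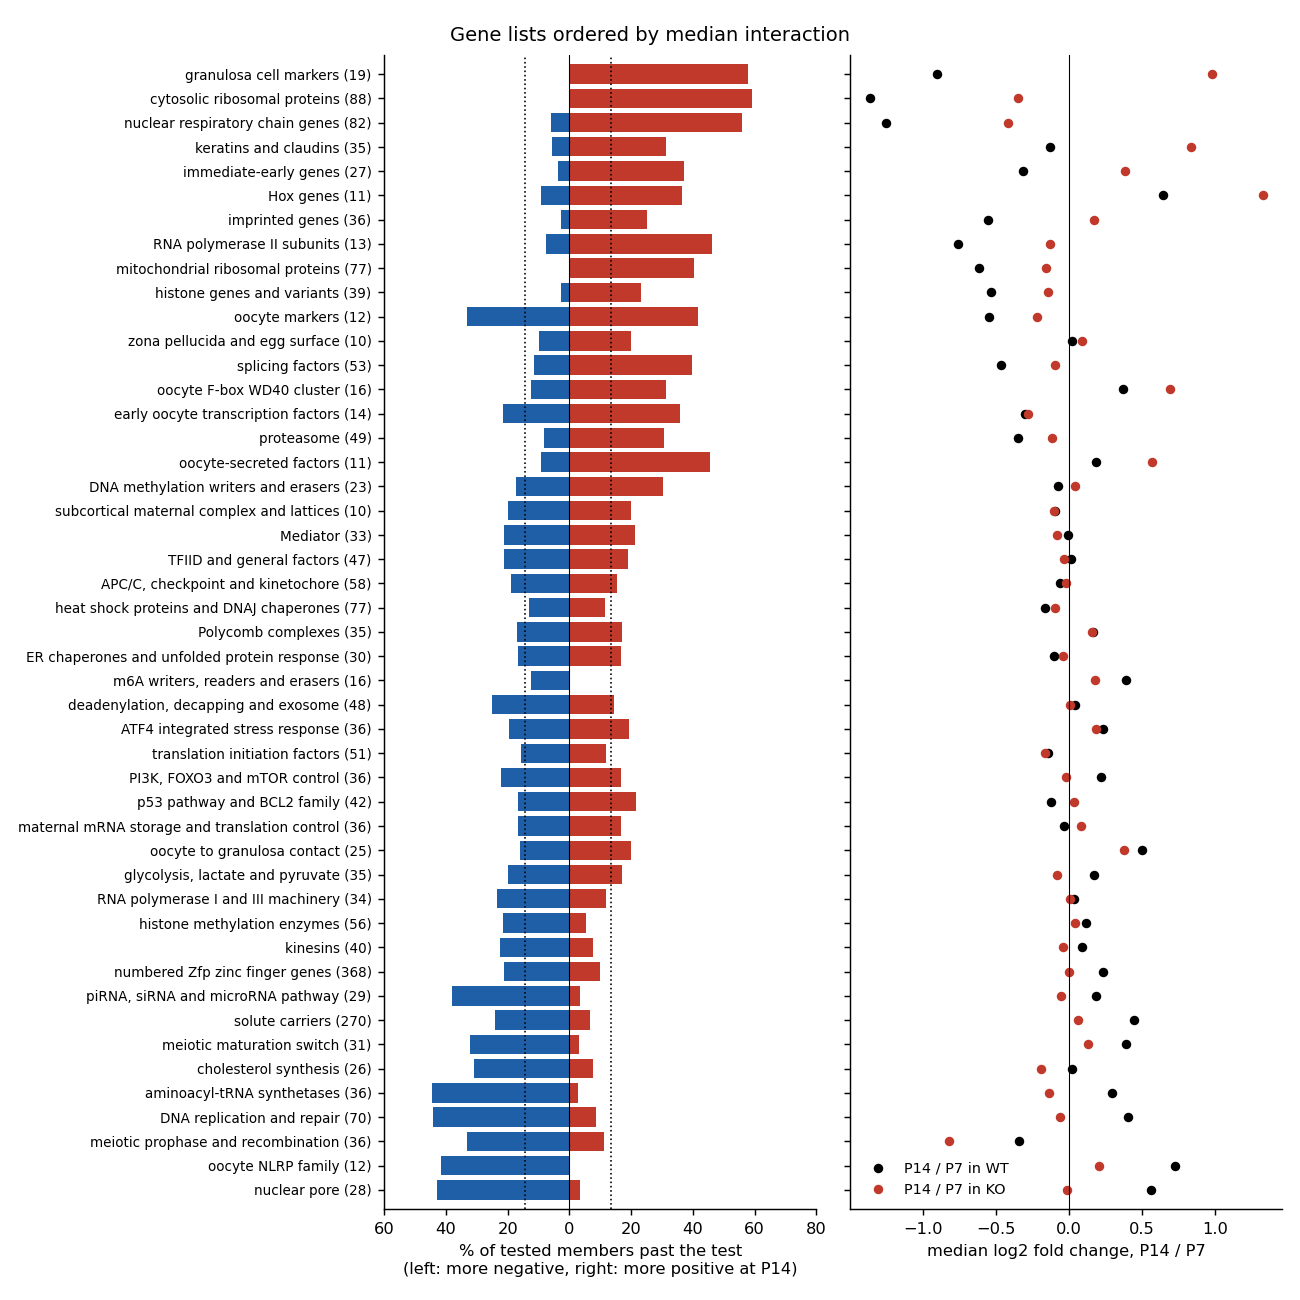
Gene lists with at least 10 tested members, ordered by median interaction, with the number tested in brackets. Left, the percentage of members past an adjusted p of 0.05 in each direction (dotted lines at 14.3% and 13.6% for all tested genes); right, the median log2 fold change from P7 to P14 in WT (black) and in Tbpl2-/- (KO, red). Ribosomal protein and respiratory chain genes fell with age in WT by more than in Tbpl2-/- by their medians.

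Splicing and protein turnover lists had more members on the positive side. Of 53 splicing factor genes 21 were more positive and 6 more negative, but the positive count was 12 or 13 without P14 WT replicate 2, P7 Tbpl2-/- replicate 2 or P7 WT replicate 2 or 3. Snrpg, for a small core protein of the spliceosome, had an interaction of 1.51, whereas Snrnp200 and Sf3b3, for large spliceosome proteins, had interactions of −1.44 and −1.20. Of 49 proteasome genes 15 were more positive and 4 more negative. Their positive count was 5 without P7 Tbpl2-/- replicate 2, 7 without P7 WT replicate 2 and 8 without P14 WT replicate 3, P7 Tbpl2-/- replicate 3 or P7 WT replicate 3. Psme1, for a proteasome activator that interferon induces, went from a log2 fold change of −2.24 at P7 to 0.05 at P14.

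Of 31 genes of the meiotic maturation switch, which govern arrest and resumption of meiosis, 10 were more negative and 1 more positive, with a median of −0.31. The negative count was 3 to 6 without P14 Tbpl2-/- replicate 2 or 3, P14 WT replicate 1 or 2, or P7 Tbpl2-/- replicate 2 or 3, and 5 with upper-quartile scaling. Ccnb3, for cyclin B3, had 202, 250.4 and 187 in P7 WT and 84.6, 71.5 and 79.1 in P7 Tbpl2-/-, and 432, 393 and 384 in P14 WT and 29.3, 66.7 and 46.4 in P14 Tbpl2-/-. It was lower in Tbpl2-/- at both stages and by more at P14 (−1.62, SE 0.332, adjusted p = 0.00338). Cks2, for a subunit of cyclin-dependent kinases that oocytes need for meiosis, was lower at P7 alone by the 2-fold limit (1.57, SE 0.234, adjusted p = 5.65e-04), and 29.7% of its stretches occur in other genes. Among genes of PI3K, FOXO3 and mTOR control, Tsc2, Kit and Rictor were more negative at −1.09, −1.03 and −1.03, and Rragd, for a GTPase that signals amino acids to mTORC1, was more positive at 2.86. Kit encodes the receptor of the granulosa factor KIT ligand, and its log2 fold change between genotypes was 0.75 at P7 and −0.27 at P14. That list held 8 more negative and 6 more positive of 36 genes, and its median of −0.04 changed sign with the scaling.

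Oocyte products did not move as a block. Among oocyte-secreted factors 5 of 11 were more positive and 1 more negative, and of 12 Nlrp genes of the oocyte 5 were more negative and the others did not pass. The Nlrp count was 9 without P7 WT replicate 1 and 3 without P14 Tbpl2-/- replicate 1 or 2, P14 WT replicate 2, P7 Tbpl2-/- replicate 2 or P7 WT replicate 3. Tnfsf11, for the cytokine RANKL, had 597, 591 and 561 in P7 WT and 8.25, 9.75 and 4.34 in P7 Tbpl2-/-, and 706, 531 and 715 in P14 WT and 31.3, 38.7 and 43.7 in P14 Tbpl2-/-, a loss at both stages that was less deep at P14 (2.17, SE 0.338, adjusted p = 7.05e-04). Oosp1 and Oosp2, for oocyte-secreted proteins, had interactions of 1.69 and 1.20. Nlrp14, among the most abundant RNAs of the oocyte, had 492128, 356771 and 263841 in P7 WT and 270704, 343951 and 339473 in P7 Tbpl2-/-, and 536207, 675620.1 and 505294 in P14 WT and 253009, 207532 and 213909 in P14 Tbpl2-/-, overlapping at P7 and lower in the mutant at P14 (−1.13, SE 0.267, adjusted p = 0.00762). In the Khdc1 cluster Khdc1c and Khdc1a had interactions of 3.17 and 1.47, but they share 43.1% and 43.5% of their stretches with each other or with further genes, and the call of Khdc1a was lost in 9 of the 12 fits without 1 library.

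Transcription factors of early oocytes were split. Sohlh1, a germ cell helix-loop-helix factor gene, was higher in Tbpl2-/- at both stages and by more at P14, with 1246, 1815 and 1318 in P7 WT and 12977, 8895 and 9546 in P7 Tbpl2-/-, and 268, 279 and 421 in P14 WT and 7046, 5954 and 4758 in P14 Tbpl2-/- (1.35, SE 0.296, adjusted p = 0.00556). Its relative Sohlh2 was higher at P7 alone by the 2-fold limit, with 715, 747 and 526 in P7 WT and 2090.2, 2549.7 and 2111 in P7 Tbpl2-/-, and 397, 592 and 462 in P14 WT and 793, 667 and 560.3 in P14 Tbpl2-/- (−1.29, SE 0.255, adjusted p = 0.0028). Figla, which switches on zona pellucida genes, had 4802, 7144 and 7296 in P7 WT and 6746, 5361 and 5934 in P7 Tbpl2-/-, and 1663, 1427 and 1654 in P14 WT and 3975, 3478 and 2484 in P14 Tbpl2-/-. It fell with age in both genotypes, less in the mutant, and the genotypes overlapped at P7 alone (1.16, SE 0.251, adjusted p = 0.00472). Foxo3, which holds primordial follicles at rest, was lower in Tbpl2-/- at P7 alone (interaction 1.30), and Taf4b, for a TFIID subunit enriched in the gonads, was lower at P14 alone (interaction −1.35). Among RNA polymerase II subunits 6 of 13 were more positive and Polr2b alone was more negative (−1.10, SE 0.201, adjusted p = 0.00176). Polr2f, a small shared subunit, had an interaction of 1.75.

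Of 42 genes of the p53 pathway and BCL2 family, which govern survival, 9 were more positive and 7 more negative. Their median of −0.07 changed sign with the scaling, and the negative count was 2 without P7 Tbpl2-/- replicate 2 and 4 without P14 Tbpl2-/- replicate 2. The more negative included Mdm4 and Atr, for a DNA damage kinase, with interactions of −1.54 and −1.31, and Atr no longer passed without P14 Tbpl2-/- replicate 2, P7 Tbpl2-/- replicate 2 or 3 or P7 WT replicate 2. Pmaip1, for the BH3-only protein NOXA, had 62.1, 100.4 and 60.9 in P7 WT and 440.3, 596 and 391 in P7 Tbpl2-/-, and 42.4, 27.7 and 31.8 in P14 WT and 605, 1281 and 1408 in P14 Tbpl2-/-. It was above WT in every mutant library, and by more at P14 (2.33, SE 0.453, adjusted p = 0.00289). Bok and Bcl2l2, for BCL2 family members, were lower at P7 alone, with interactions of 2.60 and 1.53. Of 27 immediate-early genes, which respond to signals without new protein synthesis, 10 were more positive and 1 more negative. Jund, an AP-1 subunit gene, had 291, 409.7 and 482 in P7 WT and 1116, 791 and 819 in P7 Tbpl2-/-, and 202, 158 and 178 in P14 WT and 1919.9, 1567 and 1432 in P14 Tbpl2-/- (1.98, SE 0.276, adjusted p = 3.77e-04), with 52.6% of its exonic bases overlapping an antisense gene. Fos had 74.3, 92.1 and 94.0 in P7 WT and 294, 200.5 and 216 in P7 Tbpl2-/-, and 31.5, 21.9 and 18.02 in P14 WT and 192, 231 and 226 in P14 Tbpl2-/-, higher in the mutant at both stages and by more at P14 (1.73, SE 0.328, adjusted p = 0.00219), while Junb, lower in the mutant at both stages, was more negative (−1.17, SE 0.306, adjusted p = 0.0119) and no longer passed without P14 Tbpl2-/- replicate 2.

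Chromatin and developmental genes moved in both directions. Kdm5b, an H3K4 demethylase gene, was higher at P7 alone with 581, 679.7 and 546 in P7 WT and 1278, 1919 and 1495 in P7 Tbpl2-/-, and 405, 477 and 454 in P14 WT and 378, 302 and 292 in P14 Tbpl2-/- (−1.84, SE 0.235, adjusted p = 2.36e-04), and Kdm6b, an H3K27 demethylase gene, was lower at P7 alone (interaction 1.83). Of 56 histone methylation enzymes 12 were more negative and 3 more positive, or 21.4% and 5.36%, beside 14.3% and 13.6% of all tested genes. The more negative count was 8 with library-size scaling and 8 with upper-quartile scaling. In the Polycomb list Cbx8 and Ring1, of repressive complex 1, had interactions of 1.37 and 1.97, and Ezh1, of complex 2, had an interaction of −1.19. Hoxd9 had 81.4, 77.6 and 113 in P7 WT and 187, 139 and 115 in P7 Tbpl2-/-, and 40.2, 24.3 and 53.01 in P14 WT and 351, 377 and 375 in P14 Tbpl2-/-, far above WT in every P14 mutant library (2.52, SE 0.364, adjusted p = 4.76e-04). Dio3, an imprinted deiodinase gene, had an interaction of 2.60, and 9 of 36 imprinted genes were more positive, or 5 without P7 Tbpl2-/- replicate 2. Of 35 keratin and claudin genes 11 were more positive and 2 more negative. Krt32 had 28.5, 52.8 and 36.1 in P7 WT and 156, 71.5 and 102 in P7 Tbpl2-/-, and 19.6, 13.9 and 10.6 in P14 WT and 201, 236 and 289 in P14 Tbpl2-/- (2.55, SE 0.47, adjusted p = 0.0019).

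Some named genes have the letters TATAA where a TATA box, the DNA element bound by TBP, usually lies, and their promoters are shown because TBPL2 is a relative of TBP. TATAA on the gene strand, between 45 and 16 bases before the start site in RefSeq promoters on GRCm38.p6, was found in 2.62% of 12346 tested genes with a promoter, in 2.05% of 731 called more negative and in 5.18% of 927 called more positive. Among the genes called more positive, the share was 11.7% of the 60 higher at both stages, 9.86% of the 71 lower at both, 5.52% of the 290 higher at P14 only and 2.66% of the 301 lower at P7 only. Of the named genes with a promoter, 10 of 76 more positive and none of 62 more negative held it. All 10 were named as members of lists, and among the genes named for size, abundance or opposite direction it was found in none of 12 more positive and none of 18 more negative. A match describes the letters, and neither factors nor the start sites used in oocytes were measured here. The study mapped start sites that shift within promoters, with TATA-like motifs before the TBPL2-dependent ones. A search for exact TATAA before annotated starts can miss these. The windows run from 45 bases before to 5 bases after the start site, with TATAA in capitals.
Fos (chr12:85473845-85473894, plus strand): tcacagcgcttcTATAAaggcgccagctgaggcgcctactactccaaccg
Krt32 (chr11:100088265-100088314, minus strand): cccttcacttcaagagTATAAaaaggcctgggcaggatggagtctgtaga
Krt31 (chr11:100050547-100050596, minus strand): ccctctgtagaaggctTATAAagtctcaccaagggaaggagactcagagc
Dio3 (chr12:110279185-110279234, plus strand): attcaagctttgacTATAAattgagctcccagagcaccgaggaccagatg
Gadd45g (chr13:51846630-51846679, plus strand): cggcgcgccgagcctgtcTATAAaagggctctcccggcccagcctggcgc
Tnfsf11 (chr14:78308039-78308088, minus strand): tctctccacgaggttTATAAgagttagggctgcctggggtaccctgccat
Foxo3 (chr10:42276691-42276740, minus strand): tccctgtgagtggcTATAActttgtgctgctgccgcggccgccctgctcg

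Markers of granulosa cells, which surround the oocyte, also differed between the stages. Of 19 tested markers 11 were more positive and the others did not pass, with a median of 1.42. Their median genotype effect was −1.69 at P7 and −0.01 at P14. Amh, a hormone of granulosa cells of growing follicles, had 74.3, 27.9 and 78.5 in P7 WT and 3.09, 3.25 and 8.67 in P7 Tbpl2-/-, and 23.9, 18.5 and 55.1 in P14 WT and 9.77, 20.8 and 26.8 in P14 Tbpl2-/-, low in P7 Tbpl2-/- and with overlap at P14 (2.81, SE 0.806, adjusted p = 0.0183). Inhbb, for an activin and inhibin subunit, had an interaction of 3.39. The summed level of the list was 4378 to 5584 in P7 WT, 2450.0 to 2934 in P7 Tbpl2-/-, 6608 to 7272 in P14 WT and 6034 to 6651 in P14 Tbpl2-/-. In the fit of genes with a mean above 100 normalised counts 4 markers were more positive. In pooled oocytes, fewer attached cells of a type and less RNA per cell cannot be told apart. The part of these cells in the more positive genes that were lower at P7 alone was not tested.

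Markers of other cells passed the test in both directions. Of 9 tested theca and stroma markers 2 were more negative and 2 more positive, or 1 more negative without P7 Tbpl2-/- replicate 2. The more positive were Nr2f2, for a nuclear receptor of stroma (2.78, SE 0.507, adjusted p = 0.00176), and Lhcgr, for the luteinising hormone receptor (2.11, SE 0.582, adjusted p = 0.0152). The more negative were Ptch1, for the hedgehog receptor (−0.93, SE 0.259, adjusted p = 0.0158), and the collagen gene Col3a1, which had only 4.07, 0 and 2.06 in P7 WT and 9.28, 8.67 and 16.3 in P7 Tbpl2-/-, and 15.2, 5.77 and 5.30 in P14 WT and 0, 1.43 and 0 in P14 Tbpl2-/-. The list had a summed level of 885 to 928 in P7 WT and 623 to 759 in P7 Tbpl2-/-, and 803 to 1089 in P14 WT and 399 to 595 in P14 Tbpl2-/-. Of 7 tested blood, immune and endothelial markers, Tek alone passed (−1.46, SE 0.247, adjusted p = 0.00118). Among oocyte markers 5 of 12 were more positive and 4 more negative. Their summed level was high in every library, but lower in the mutant at both stages without overlap. It was 2126279 to 2274439 in P7 WT and 820190 to 829313 in P7 Tbpl2-/-, and 1598634 to 1912158 in P14 WT and 608406 to 788275 in P14 Tbpl2-/-.

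With TMM scaling several lists had similar shares in both directions. In the lists for TFIID and general factors, Mediator, APC/C and kinetochore, chaperones and translation initiation, the share of more negative members was 12.99% to 21.3% and of more positive members 11.7% to 21.2%, beside 14.3% and 13.6% of all tested genes. Scaling by library size moved the counts of more negative and more positive genes to 4 and 11 for Mediator, 7 and 13 for TFIID and general factors and 7 and 14 for chaperones, and upper-quartile scaling to 5 and 10 for Mediator. Zona pellucida genes had 2 more positive and 1 more negative of 10, and 5 or 4 were more positive with library-size or upper-quartile scaling. Their median genotype effects were −2.16 at P7 and −1.62 at P14.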

How the data were processed

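RNA of pooled mouse oocytes was amplified with SMART-Seq v4, made into Nextera XT libraries and sequenced as single reads of 50 bases. The authors trimmed the reads, aligned them to mm10 with STAR 2.7.0f and counted uniquely aligned reads per gene with HTSeq 0.9.1, per the submitters' processing notes and the study's methods. The strand setting is not given in the sources used here. The deposited raw counts per gene were used. The normalised counts, means, fold changes and p-values that the authors deposited beside them were not used.

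All 12 libraries entered 1 fit of 4 group means in edgeR 4.0.16 (R 4.3.3) with filterByExpr, TMM factors and the robust quasi-likelihood F test, and p-values were adjusted over 17715 of 55450 genes by Benjamini-Hochberg. Normalised counts were recomputed from the TMM factors. SE is the log2 value divided by the square root of F. Genes were named by size, abundance and opposite direction among stable calls, and by the largest values in each gene list. The members and lists were chosen with earlier results of these data known. Exon overlaps and shared 50-base stretches came from GENCODE M21. RefSeq promoters matched 12346 tested and 1658 called genes. The test was checked on simulated counts with few changed genes, equal in both directions, and a spread taken from a trend over abundance. The data differ from that setting, so the check does not extend to the numbers of calls made here. Alternatives were DESeq2 1.42.0, other scalings and filters, a replicate block, single libraries left out and a length correction. Depth limits precision, and p-values cover the spread between pools.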

Additional observations from a re-analysis of the deposited data

Results flagged for a closer look

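A difference of the genotype effect between the stages, by the interaction term itself, marked 959 genes as more negative and 1445 as more positive at P14 (edgeR quasi-likelihood F test, adjusted p at most 0.05 and more than 2-fold). Within these, 5 more negative and 9 more positive genes were called in opposite directions at the stages, had a mean above 100 normalised counts and kept their interaction call without any single library and under the library-size and DESeq2 size-factor scalings. The 4 with the largest interaction in each direction are named. Their opposite calls at the stages were required in the main fit alone. In the fit of genes with a mean above 100, 2 more negative and 14 more positive genes were called in opposite directions. In Glis3 (−3.41), Entpd1 (−2.90), Sec16b (−2.71) and Sh3rf2 (−2.33) the log2 interaction was negative, with the mutant above WT at P7 and below it at P14. In March11 (5.24), Zfp503 (3.09), Onecut3 (2.86) and Samd5 (2.69) the order was the reverse. For these 8 genes the 3 mutant libraries lay on one side of the 3 WT libraries at P7 and on the other side at P14.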

How the results depend on the processing

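Counts of genes moved with the filter and the scaling. Of 3792 values of the 192 named genes under all alternatives, 0 changed sign with an adjusted p of at most 0.05 in the main fit or the alternative. Sign changes that passed in neither fit were not counted. Of the named genes 161 kept their side of the threshold under every alternative and 31 did not in at least 1. Genes named for size, abundance or opposite direction had to be stable under several of these alternatives, and list members were picked from called genes. The count that kept its side was therefore partly set by the choice of genes. Without a 2-fold limit 2538 genes were more negative and 2416 more positive, with a mean above 100 normalised counts 486 were more negative, and at an adjusted p of at most 0.01 756 were more positive. No filter on low counts gave 931 and 1690, DESeq2 1004 and 1530, and DESeq2 size factors in edgeR 958 and 1452. Leaving out 1 library at a time gave 684 to 1375 more negative and 1082 to 1721 more positive genes. Within the more negative genes, library size alone gave 145 called at neither stage, 4 of opposite direction, 120 lower at P14 only and 19 lower at both, upper-quartile scaling gave 174 at neither stage and 8 of opposite direction, and a mean above 100 gave 146, 2, 121 and 27, with 156 higher at P7 only and 34 higher at both. Within the more positive genes, library size alone gave 715 higher at P14 only and 155 higher at both, and a mean above 100 gave 267 higher at P14 only and 14 of opposite direction. Without single libraries the more negative classes ran from 171 to 390 called at neither stage, 8 to 16 of opposite direction, 226 to 500 higher at P7 only, 46 to 85 higher at both, 194 to 332 lower at P14 only and 33 to 52 lower at both. The more positive classes ran from 190 to 323 at neither stage, 309 to 485 higher at P14 only, 66 to 93 higher at both, 26 to 54 of opposite direction, 361 to 645 lower at P7 only and 111 to 157 lower at both. The cause of these shifts was not tested. The transcript length correction was chosen after seeing the data.

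The sources used here do not say whether replicate numbers pair the samples, and the main fit treated them as unpaired. Deviations of same-numbered libraries from their group means correlated at −0.10, 0.03 and −0.05 at P7 and −0.09, −0.11 and 0.22 at P14. Across stages same-numbered libraries correlated at 0.26, 0.10 and 0.09 in Tbpl2-/- and −0.03, −0.04 and 0.02 in WT. Deviations within a group depend on each other, so these values cannot show whether the pools were paired. With a replicate block 945 genes were more negative and 1393 more positive.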

Other observations

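Genes of the integrated stress response and of protein folding were split between both directions. Of 36 tested genes of the ATF4 list, 7 were more negative and 7 more positive, and the median of −0.02 changed sign with the scaling. Atf5, for a transcription factor related to ATF4, had normalised counts of 18.3, 43.5 and 46.5 in P7 WT and 14.4, 21.7 and 11.9 in P7 Tbpl2-/-, and 10.9, 4.62 and 13.8 in P14 WT and 26.4, 17.9 and 21.4 in P14 Tbpl2-/-. The mutant was on average below WT at P7 and above it at P14 (interaction 2.30, SE 0.646, adjusted p = 0.0164 by edgeR). Eif2ak4, for the kinase GCN2 that senses uncharged tRNAs, had 1903, 1352 and 1254 in P7 WT and 928, 1291 and 1101 in P7 Tbpl2-/-, and 4016, 3906 and 4149 in P14 WT and 1053, 1388 and 1707 in P14 Tbpl2-/- and an interaction in the other direction (−1.10, SE 0.26, adjusted p = 0.00723). Dnajb9, an endoplasmic reticulum cochaperone gene, had 636, 881 and 689 in P7 WT and 571, 606 and 586 in P7 Tbpl2-/-, and 178, 169 and 247 in P14 WT and 397, 545 and 515 in P14 Tbpl2-/- (1.62, SE 0.254, adjusted p = 7.49e-04), while Atf6, for a sensor of unfolded proteins, had an interaction of −1.06.

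Histone genes had 9 more positive and 1 more negative of 39 tested members. H2afz, for the histone variant H2A.Z, had 361, 409 and 428 in P7 WT and 304, 242 and 306 in P7 Tbpl2-/-, and 225, 197 and 179 in P14 WT and 322, 356 and 330.1 in P14 Tbpl2-/- (1.24, SE 0.221, adjusted p = 0.00157), and 35.4% of its 50-base stretches occur in other genes. The linker histone gene Hist1h1d was the 1 more negative member (−1.65, SE 0.403, adjusted p = 0.00844).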
